A study of Rattus norvegicus with 372 samples.

Results

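The 9 genes described here make glucose in the liver or sense glucose and insulin there: Pck1, G6pc, Fbp1, Pc, Ppargc1a, Pklr, Pfkfb1, Irs2 and Slc2a2. They were found by symbol among the 20946 gene symbols of a whole transcriptome (WT) assay, in which each was read by 1 probe. A smaller surrogate (ST) assay of 2604 symbols, run on the same wells, held 6 of the 9 (all but G6pc, Pfkfb1 and Irs2). Both assays were TempO-Seq, in which pairs of detector oligos are ligated on a target RNA and the ligated products are counted by sequencing. The cells were primary hepatocytes of male Wistar rats in a collagen sandwich, exposed to 14 chemicals for 24 h, each at a low and a high concentration. The chemicals were acetaminophen, caffeine, chloramphenicol, diclofenac, doxorubicin, indomethacin, isoniazid, ketoconazole, naproxen, ranitidine, simvastatin, sulfasalazine, WY14643 and the one labelled Valproic, which is valproic acid. Vehicle wells received 0.5% DMSO alone, and medium wells received none. The culture medium held 0.5 µg/mL insulin, 100 nM dexamethasone and EGF, so the levels are those of cells already exposed to insulin and a glucocorticoid.

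The experiment was run in 2 batches, each with the hepatocytes of 1 rat, its own library preparation and its own sequencing run, so that rat and run cannot be told apart. Each treatment had 3 wells in each batch. These are technical replicates of 1 rat, and the p-values measure only the spread between wells. Vehicle and medium each had 3 wells in batch 1 and 6 in batch 2, and all treatments of a batch shared its vehicle wells. In batch 1 these wells were on the plate of 8 of the chemicals. The other 6 (acetaminophen, chloramphenicol, indomethacin, ketoconazole, sulfasalazine and WY14643) were on a plate without vehicle wells, so that in batch 1 their differences from vehicle and a difference between plates cannot be told apart. The reads per WT well ranged from 2709504 to 8948654 in batch 1 and from 2289425 to 8975207 in batch 2. Levels are given in CPM (counts scaled to 1000000 reads of the well), and are compared between wells for 1 gene and not between genes. Where the wells, counts, means or intervals of both batches are joined by "and", those of batch 1 come first. Log2 fold changes (L2FC) came from an edgeR quasi-likelihood fit of all WT wells with batch as a term, with the standard error (SE) taken as the absolute L2FC divided by the square root of the F statistic. A gene was called at an adjusted p under 0.05 over the 10191 genes tested, those whose counts averaged 10 or more per well. Of the 9 genes, 8 passed this filter, and the same 8 would pass it without the wells of 10000 µM caffeine. Ppargc1a, with a mean of 5.61 counts per well, did not, and its L2FC is from a fit with no filter, in which 15.9% of all gene and treatment pairs were called.

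Gluconeogenesis makes glucose from lactate, amino acids and glycerol during fasting. Pyruvate carboxylase (Pc) makes oxaloacetate, cytosolic phosphoenolpyruvate carboxykinase (Pck1) turns it into phosphoenolpyruvate, fructose-1,6-bisphosphatase (Fbp1) removes a phosphate further along, and the catalytic subunit of glucose-6-phosphatase (G6pc) releases free glucose. Glucagon acts through cAMP and protein kinase A to induce Pck1, G6pc and the coactivator Ppargc1a, and insulin opposes it. Pklr is the liver pyruvate kinase, a glycolytic enzyme induced by glucose and insulin. Pfkfb1 is the liver form of the enzyme that makes and breaks down fructose-2,6-bisphosphate, Irs2 is a docking protein of the insulin receptor, and Slc2a2 (GLUT2) is the glucose transporter of hepatocytes. Caffeine is a methylxanthine that inhibits phosphodiesterases, the enzymes that break down cAMP, and that also blocks adenosine receptors.

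The stretches before the transcription start of Pck1, Ppargc1a and G6pc are shown because cAMP is known to act on these genes through the cAMP response element, the site of CREB proteins. RefSeq promoter windows (build GRCr8, 250 bases before the start) were matched by symbol for 7 of the 9 genes, G6pc being listed as G6pc1, and not for Pc and Irs2. Both strands were searched for the palindrome TGACGTCA, present in 1.78% of the 27457 genes with a window, and for TGACG, present in 20% of them and contained in the palindrome on both strands. Matches are in capitals.
Pck1, chr3:182348322-182348571, plus strand: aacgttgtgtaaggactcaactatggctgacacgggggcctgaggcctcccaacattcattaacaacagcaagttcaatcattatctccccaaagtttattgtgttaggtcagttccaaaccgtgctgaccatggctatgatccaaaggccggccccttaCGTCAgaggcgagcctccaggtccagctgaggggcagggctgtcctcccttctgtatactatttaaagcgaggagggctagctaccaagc
Ppargc1a, chr14:63634058-63634307, plus strand: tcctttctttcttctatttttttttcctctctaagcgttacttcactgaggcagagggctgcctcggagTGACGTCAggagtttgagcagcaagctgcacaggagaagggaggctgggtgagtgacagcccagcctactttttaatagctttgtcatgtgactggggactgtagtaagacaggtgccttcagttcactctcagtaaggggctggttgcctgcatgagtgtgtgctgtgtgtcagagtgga
G6pc, chr10:86807409-86807658, plus strand: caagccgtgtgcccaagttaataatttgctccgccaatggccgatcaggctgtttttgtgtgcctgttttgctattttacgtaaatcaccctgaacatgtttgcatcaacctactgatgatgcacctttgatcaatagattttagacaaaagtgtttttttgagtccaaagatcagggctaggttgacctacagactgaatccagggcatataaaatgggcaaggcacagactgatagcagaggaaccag
The Pck1 window held TGACG on the reverse strand, 90 bases before the start. The Ppargc1a window held the full palindrome, 181 bases before the start. The windows of G6pc, Fbp1, Pklr, Pfkfb1 and Slc2a2 held neither. These are matches of exact letters, so a variant of the site would be missed, and binding of a factor was not measured.

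Caffeine at 10000 µM gave the highest level of the 30 conditions for Pck1, G6pc, Ppargc1a, Pfkfb1 and Irs2, with all its wells above those of the next condition in both batches. All 8 tested genes were called, against 66.2% of all genes. Pck1, G6pc, Fbp1, Pfkfb1 and Irs2 were higher than vehicle, and Pc, Pklr and Slc2a2 were lower. Pck1 had the highest L2FC of the 10191 genes and G6pc held place 3.

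The level of Pck1 was 3.99, 6.55 and 3.57 CPM in the vehicle wells of batch 1 and 2.66 to 6.23 CPM in the 6 of batch 2. With 10000 µM caffeine it was 4527, 5599 and 5543 CPM in batch 1 and 5382, 7150.0 and 7601 CPM in batch 2. Every caffeine well of both rats lay far above every vehicle well. The L2FC was 10.59 ± 0.26 (SE, adjusted p 1.08e-83). In summed counts per read Pck1 was at 1130 times the vehicle level in batch 1 (95% counting interval 919 to 1410) and at 1600 times in batch 2 (1380 to 1880). Such intervals, here and in what follows, are exact and cover counting error only.

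G6pc was barely detected in vehicle, with 1 to 6 counts per well, or 0.182 to 0.88 CPM. With 10000 µM caffeine it was at 141, 196 and 181 CPM in batch 1 and 274, 365 and 390.0 CPM in batch 2, again with no overlap. The L2FC of G6pc was 9.02 ± 0.32 (SE, adjusted p 6.38e-62). Vehicle held only 9 counts in batch 1 and 22 in batch 2, so the ratio of summed counts per read was wide, 369 (194 to 808) and 623 (411 to 994).

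The other enzymes of the path moved less, and in opposite directions. Fbp1 was at 134, 129.8 and 135 CPM in vehicle of batch 1 and 78.4 to 107 CPM in batch 2, against 489, 509.8 and 511 CPM and 406, 647 and 544 CPM with 10000 µM caffeine. All caffeine wells of Fbp1 were above vehicle, with an L2FC of 2.34 ± 0.11 (SE, adjusted p 1.26e-45). Pc, which supplies the path with oxaloacetate, was at 11.4, 8.74 and 6.61 CPM in vehicle of batch 1 and 11.4 to 16.7 CPM in batch 2, against 5.92, 6.55 and 4.95 CPM and 4.58, 6.34 and 8.26 CPM with caffeine. The Pc wells with caffeine were below vehicle in both batches, in batch 1 by a narrow margin. The L2FC of Pc was -0.82 ± 0.19 (SE, adjusted p 7.37e-05), and in batch 1 alone it was -0.43 and not called (adjusted p 0.204).

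Ppargc1a was at 0.605, 0.546 and 0.536 CPM in the vehicle wells of batch 1 and 0.587 to 1.25 CPM in batch 2. With 10000 µM caffeine it was at 4.53, 6.93 and 4.95 CPM and 5.6, 7.87 and 4.2 CPM, above every vehicle well. The summed counts were 88 against 11 in batch 1, a ratio per read of 9.57 (5.1 to 19.9), and 138 against 35 in batch 2 from more vehicle wells, a ratio of 6.75 (4.63 to 10.1). The L2FC with no filter was 3.12 ± 0.35 (SE, adjusted p 4.28e-15), and in the ST assay with no filter 3.41 ± 0.28 (adjusted p 6.5e-24).

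Pklr, on the glycolytic side, moved the other way. It was at 11.1, 15.7 and 14.1 CPM in vehicle of batch 1 and 7.81 to 12.5 CPM in batch 2, against 0, 0.578 and 0.381 CPM and 1.4, 0.888 and 0.656 CPM with 10000 µM caffeine. The L2FC of Pklr was -3.87 ± 0.30 (SE, adjusted p 1.2e-25). From 5 counts against 257 the ratio per read was 0.0233 in batch 1 (0.00749 to 0.055), and from 23 against 409 it was 0.0962 in batch 2 (0.0603 to 0.146). Pfkfb1 was higher, at 59.4, 84.7 and 74.9 CPM and 66.4, 93.7 and 82.4 CPM with caffeine against 21.8, 25.3 and 25.4 CPM and 21 to 32.5 CPM in vehicle, without overlap. Its L2FC was 1.77 ± 0.15 (SE, adjusted p 2.14e-23).

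Irs2 was at 2.42, 3.64 and 4.64 CPM in vehicle of batch 1 and 5.87 to 11.7 CPM in batch 2, so the vehicle levels of the 2 rats did not overlap. With 10000 µM caffeine Irs2 was at 181, 201 and 109 CPM and 244, 190.2 and 262 CPM, above all vehicle wells, with an L2FC of 5.08 ± 0.26 (SE, adjusted p 4.81e-43). Slc2a2 was at 118, 115 and 115 CPM in vehicle of batch 1 and 103 to 133 CPM in batch 2. With caffeine Slc2a2 was at 18.1, 20.4 and 23.1 CPM and 42.4, 42.1 and 30.2 CPM, below all vehicle wells, with an L2FC of -1.81 ± 0.15 (SE, adjusted p 2.35e-22).

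**Figure D1:**
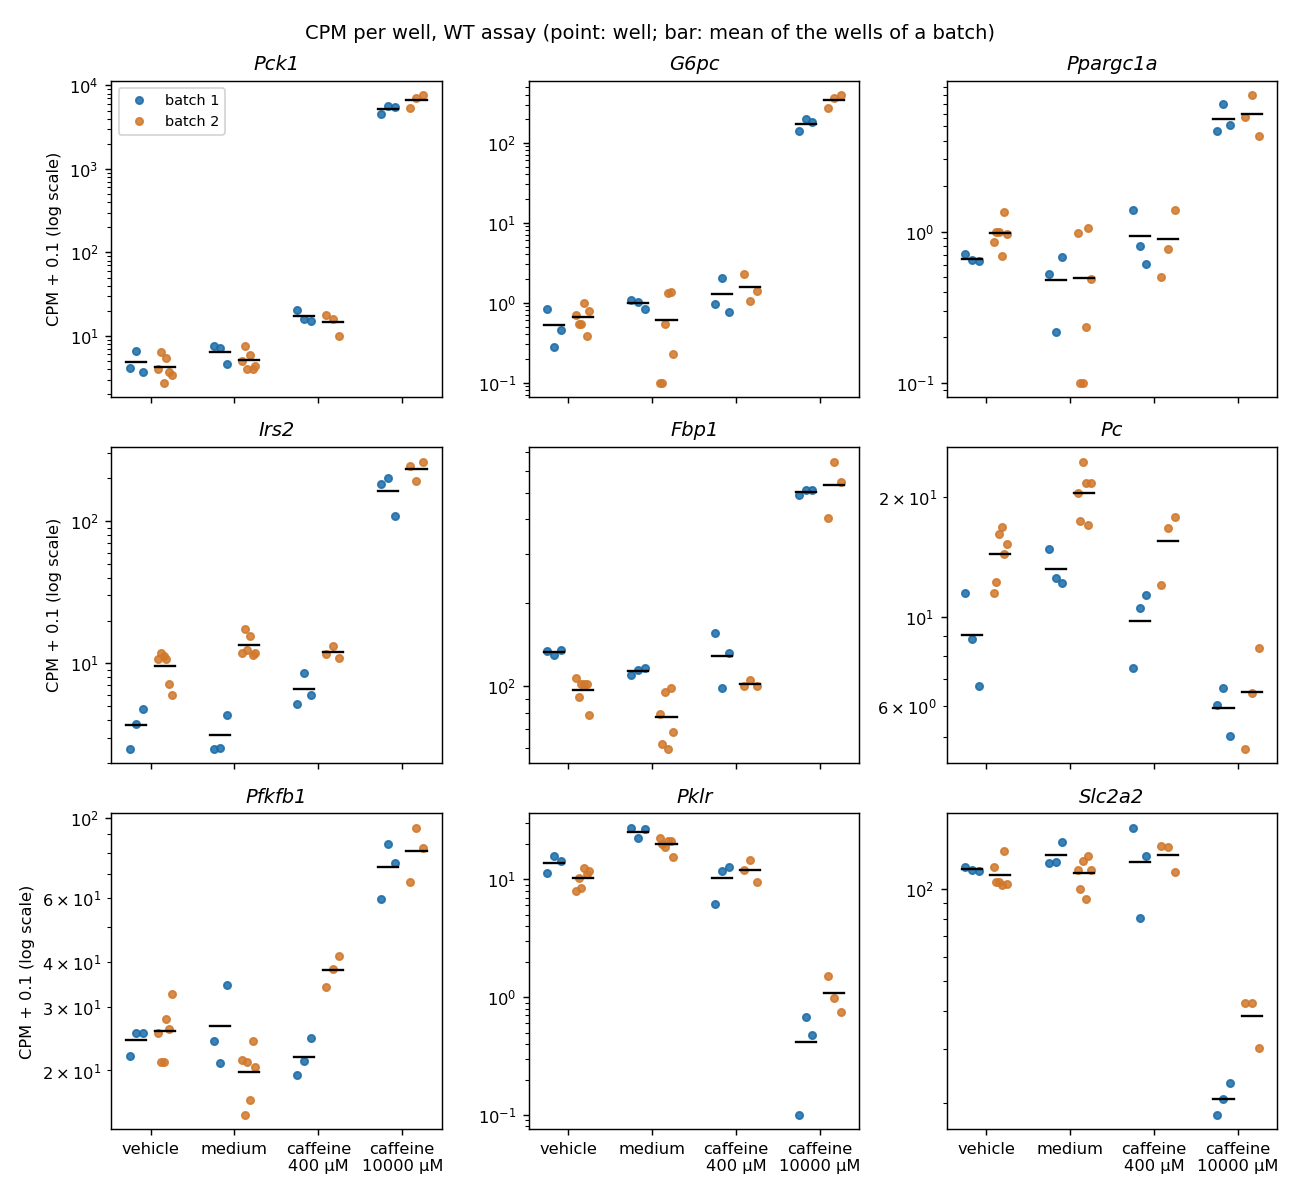
CPM of each of the 9 genes (1 panel each, log axis, 0.1 added) in WT wells given vehicle, medium, 400 µM caffeine or 10000 µM caffeine, with a point for each well by batch and a bar for the mean. At 10000 µM the Pck1 wells sit between 4527 and 7601 CPM against 2.66 to 6.55 CPM in vehicle. The Pklr, Slc2a2 and Pc wells sit below vehicle in each batch, those of Pc in batch 1 by a narrow margin.

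At 400 µM caffeine only Pck1 of the 8 tested genes was called, where 0.118% of all genes were. It was at 20.5, 15.9 and 14.8 CPM in batch 1 and 17.5, 15.9 and 9.86 CPM in batch 2, above the vehicle wells of both. The L2FC of Pck1 was 1.90 ± 0.24 (SE, adjusted p 7.32e-09), at place 2 of the 10191 genes. G6pc was at 0.866, 1.95 and 0.674 CPM and 2.15, 0.938 and 1.3 CPM, with an L2FC of 1.31 ± 0.50 that was not called (adjusted p 0.544). The wells of each of the other 7 genes overlapped vehicle in at least 1 batch.

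Set directly against 400 µM caffeine, the wells of 10000 µM differed in all 8 tested genes, with 61.5% of all genes called. The L2FC was 8.69 ± 0.28 for Pck1, 7.71 ± 0.34 for G6pc, 4.61 ± 0.30 for Irs2, 2.33 ± 0.13 for Fbp1 and 1.51 ± 0.16 for Pfkfb1 (SE). It was -3.83 ± 0.31 for Pklr, -1.96 ± 0.16 for Slc2a2 and -0.91 ± 0.20 for Pc. The adjusted p was 7.58e-66 for Pck1 and 4.63e-05 for Pc, which was not called in batch 1 alone (-0.55, adjusted p 0.0973).

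Against the mean of the other 13 high concentrations, 7 of the 8 genes differed with 10000 µM caffeine, with 65.2% of all genes called. The L2FC was 8.92 ± 0.10 for Pck1, 7.06 ± 0.14 for G6pc, 3.61 ± 0.14 for Irs2, 3.06 ± 0.10 for Pfkfb1 and 2.45 ± 0.07 for Fbp1 (SE). For Ppargc1a it was 3.89 ± 0.23 with no filter (adjusted p 2.28e-36). Pklr and Pc were lower, with L2FC of -1.47 ± 0.31 (adjusted p 1.05e-05) and -0.67 ± 0.16 (0.000136). Slc2a2 was not called (-0.22 ± 0.12, adjusted p 0.108), although in batch 1 alone it was (-0.64, adjusted p 0.000614) and in batch 2 alone it was at 0.11 (adjusted p 0.462).

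Markers of some liver cell types also differed in the same wells, where 66.2% of all genes were called. The summed level of the 7 hepatocyte markers measured was 37051 to 44232 CPM in the 9 vehicle wells and 16032 to 22224 CPM in the 6 wells of 10000 µM caffeine, where Hnf4a and Cps1 were higher and Alb, Apoa1, Serpina1 and Tf lower. The 6 macrophage markers summed to 26.2 to 45.9 CPM and 5.64 to 14.6 CPM. Of the 4 tested, Cd163, Clec4f and Csf1r were called lower, a share of 75% that is near that of all genes. The 6 stellate cell and fibroblast markers summed to 35 to 168 CPM and 6.87 to 36.4 CPM. The 2 tested, Col1a2 and Col3a1, were called lower, and Col1a1, Acta2 and Des were at 0 in every caffeine well. The 5 endothelial markers, of which 0 were tested, summed to 1.67 to 3.81 CPM and 0.17 to 2.93 CPM. The 4 biliary markers summed to 33.1 to 49 CPM and 28.5 to 39.2 CPM, with Krt7 at 0 in both groups and Krt19 at 0 with caffeine. Both of these sums overlapped vehicle, and 0 of the 2 biliary markers tested were called. The part of these shifts in the results was not tested, and fewer cells of a type and less RNA per cell cannot be told apart in such wells.

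Other genes of the pathway are given by lists, to be read against the 66.2% of all genes called with 10000 µM caffeine. The share called was 92.9% of the glucose- and insulin-induced genes, 78.6% of the cAMP-responsive genes, 76.2% of the regulators, 69.6% of the other enzymes and 66.7% of the glycogen genes. With only 9 to 23 genes tested in a list, all but the first lay near that of all genes. No share was tested against it. Of 14 cAMP-responsive genes tested with 10000 µM caffeine, 8 were higher, 3 lower and 3 not called, with a median L2FC of 1.27 against 0.05 over all genes. Pdk4, the kinase that inactivates pyruvate dehydrogenase, was at 0 to 0.357 CPM in vehicle of batch 1 and 0 to 0.3 CPM in batch 2, and at 18.9 to 37.2 CPM and 41.8 to 78.5 CPM with caffeine (L2FC 7.99 ± 0.35, SE, adjusted p 7.79e-51). Igfbp1, a binder of insulin-like growth factors that insulin represses, had a mean of 788 and 1579 CPM in vehicle and 21600.4 and 22506 CPM with caffeine (L2FC 4.40 ± 0.24, adjusted p 6.66e-40). Fgf21, a fasting hormone of the liver, was lower, from a mean of 46.6 and 39.7 CPM to 2.59 and 0.813 CPM (L2FC -4.64 ± 0.31, adjusted p 6.31e-31).

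Of 14 glucose- and insulin-induced genes tested, 0 were higher, 13 lower and 1 not called, with a median L2FC of -1.74. Tkfc, a kinase of fructose breakdown, and Thrsp, a gene of fat synthesis, had L2FC of -3.52 ± 0.19 (SE, adjusted p 4.5e-40) and -2.33 ± 0.19 (1.07e-23). Of 23 other gluconeogenic and glycolytic enzymes, 6 were higher, 10 lower and 7 not called, with a median of -0.16. Got1, the cytosolic aspartate aminotransferase, had a mean of 134 and 90.6 CPM in vehicle and 7769 and 4978 CPM with caffeine (L2FC 5.98 ± 0.10, adjusted p 3.85e-108). Pfkm, a phosphofructokinase, was lower, with an L2FC of -2.92 ± 0.34 (adjusted p 5.7e-14).

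Of 21 regulators of gluconeogenesis and of insulin or glucagon signalling, 13 were higher, 3 lower and 5 not called with 10000 µM caffeine, with a median L2FC of 0.30. The glucagon receptor Gcgr had a mean of 125 and 91.7 CPM in vehicle and 11 and 10.1 CPM with caffeine (L2FC -3.19 ± 0.18, SE, adjusted p 7.08e-37). The transcription factors Klf15 and Cebpb were higher, by 2.81 ± 0.16 and 1.97 ± 0.11. Of 9 glycogen genes 2 were higher, 4 lower and 3 not called, with a median of -0.35. Among them the glycogen phosphorylase Pygl had an L2FC of -0.55 ± 0.07, the phosphatase subunit Ppp1r3c -1.39 ± 0.22 and the phosphorylase kinase subunit Phkg2 0.76 ± 0.11. At 400 µM caffeine edgeR called 0 genes of these 5 lists. An unadjusted p under 0.05 was found there for 2 of the cAMP-responsive genes, 3 of the glucose- and insulin-induced genes, 5 of the other enzymes, 1 of the regulators and 1 of the glycogen genes. These counts have no share of all genes at that threshold to be read against. DESeq2 called 1 gene in each of the first 3 of these lists, Tat among the cAMP-responsive genes, and 0 in the other 2.

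Across all treatments most calls were at the high concentrations. Of 112 pairs of a tested gene and a high concentration 44 were higher, 50 lower and 18 not called, or 83.9% called against 50.9% of the pairs of all genes. Of the 112 pairs at low concentrations 22 were higher, 6 lower and 84 not called, or 25% called against 9.41%. All 8 genes were called with 15 µM ketoconazole (background 51.3% of all genes) and 400 µM diclofenac (71.7%), as with caffeine. With ketoconazole the calls of Irs2 and Slc2a2 were lost without any 1 of the replicates (adjusted p 0.0767 to 0.182 and 0.0652 to 0.111) and that of G6pc without replicate 1, which left 5, 6 and 6 of the 8 without replicate 1, 2 and 3. The count was 7 with 100 µM sulfasalazine (40.9%), 10000 µM valproic acid (66.7%), 200 µM WY14643 (51.4%), 2000 µM naproxen (53.8%), 300 µM indomethacin (54.7%), 4000 µM ranitidine (66.2%) and 60 µM simvastatin (23.9%). It was 6 with 10000 µM acetaminophen (78.9%) and 10000 µM isoniazid (34.7%), 5 with 2 µM doxorubicin (19.4%) and 4 with 450 µM chloramphenicol (33.3%).

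At the low concentrations all 8 genes were called with 8 µM WY14643 (56.2% of all genes), 7 with 400 µM valproic acid (29.1%), 6 with 80 µM naproxen (16%) and 3 with 4 µM sulfasalazine (17.4%). A single gene was called with 12 µM indomethacin (Pc, 5.87%), 16 µM diclofenac (Pck1, 0.137%) and 2.4 µM simvastatin (Fbp1, 2.4%). Neither edgeR nor DESeq2 called any of the 8 with 0.08 µM doxorubicin (1.32%), 0.6 µM ketoconazole (1.62%), 160 µM ranitidine (0.0589%), 18 µM chloramphenicol (0.0883%), 400 µM acetaminophen (1.38%) and 400 µM isoniazid (0.0196%). In that order 2, 3, 0, 1, 1 and 0 of the 8 had an unadjusted p under 0.05 in edgeR. The percentages above are of adjusted calls, so these counts have no share of all genes to be read against. The Pck1 call with 16 µM diclofenac was lost without any 1 of the replicates (adjusted p 0.12, 0.131 and 0.69), and all 3 calls with 4 µM sulfasalazine were lost without replicate 2 or 3. The Pc call with 12 µM indomethacin was lost without replicate 2 (0.231) or 3 (0.0851) and in batch 1 alone (L2FC 0.14, adjusted p 0.902). With 8 µM WY14643 the call of Pfkfb1 was lost without replicate 2 and that of Irs2 without replicate 3.

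**Figure D2:**
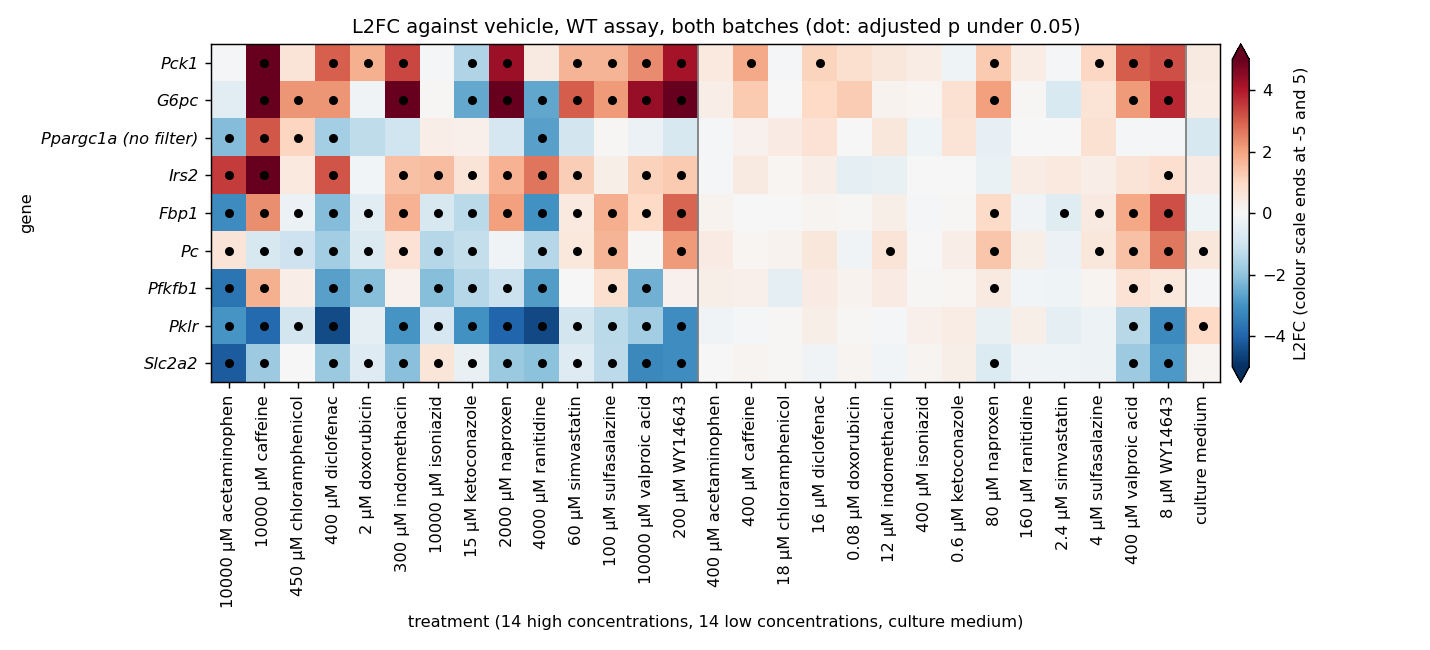
L2FC against vehicle of the 9 genes (rows) in the 14 high and 14 low concentrations and in medium (columns), WT assay with both batches, with the colour scale ending at -5 and 5, Ppargc1a from the fit with no filter, and a dot for an adjusted p under 0.05. At the high concentrations Pck1 and G6pc are mostly higher and Pklr and Slc2a2 mostly lower, and dots are few at the low concentrations.

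Pck1 was higher in 9 of the 14 high concentrations, lower in 1 and not called in 4, and higher in 6 of the 14 low ones, of which 4 µM sulfasalazine and 16 µM diclofenac were lost without replicate 2 or 3. After caffeine came 2000 µM naproxen, an inhibitor of cyclooxygenases, at 56.3, 54.5 and 69.4 CPM and 97, 114 and 96 CPM (L2FC 4.26 ± 0.23, SE, adjusted p 2.28e-40). With 200 µM WY14643, an agonist of PPARα, it was at 59.9, 59.8 and 61.7 CPM and 57.6, 70 and 79.9 CPM (4.18 ± 0.23, adjusted p 1.36e-39). The naproxen and WY14643 wells of Pck1 overlapped in batch 1 and not in batch 2. Indomethacin at 300 µM gave 33.3, 28.1 and 37.9 CPM and 46, 37.7 and 49.4 CPM (3.34 ± 0.23), and 400 µM valproic acid 41.1, 35.4 and 39.2 CPM and 24.4, 32.8 and 28.3 CPM (3.04 ± 0.23). The lowest Pck1 level was with 15 µM ketoconazole, an inhibitor of cytochromes P450, at 2.75, 1.6 and 0.765 CPM and 1.97, 0.593 and 1.06 CPM, below vehicle in both batches (-1.49 ± 0.36, adjusted p 0.000188).

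G6pc was higher in 9 high and 3 low concentrations and lower in 2 high ones. Of the low ones, 80 µM naproxen was called in batch 1 alone (L2FC 2.97, adjusted p 7.25e-05) and not in batch 2 alone (0.28, 0.848), where its wells overlapped vehicle. The call with 450 µM chloramphenicol was lost in batch 1 alone (1.34, adjusted p 0.279). The wells with 2000 µM naproxen were at 32.4, 29.8 and 29.2 CPM and 48.2, 49.7 and 43.5 CPM (L2FC 6.18 ± 0.33, SE, adjusted p 8.91e-41), those with 300 µM indomethacin at 29.7, 26.2 and 40.5 CPM and 25.2, 21 and 17.7 CPM (5.76 ± 0.33, adjusted p 2.15e-36). With 200 µM WY14643 they were at 25.3, 16.8 and 29.2 CPM and 11, 18.4 and 19.1 CPM (5.42 ± 0.34, adjusted p 1.11e-33). All of these wells of G6pc lay above vehicle. With 4000 µM ranitidine and with 15 µM ketoconazole G6pc was called lower, with 0 counts in the wells of batch 1 and 3 in those of batch 2 for each. The 95% counting interval of the ratio to vehicle reached up to 0.536 and 0.555 in batch 1, and was 0.0401 to 0.696 and 0.0408 to 0.709 in batch 2. The ketoconazole call was lost without replicate 1 (adjusted p 0.219) and the ranitidine call without replicate 3 (0.0745).

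**Figure D3:**
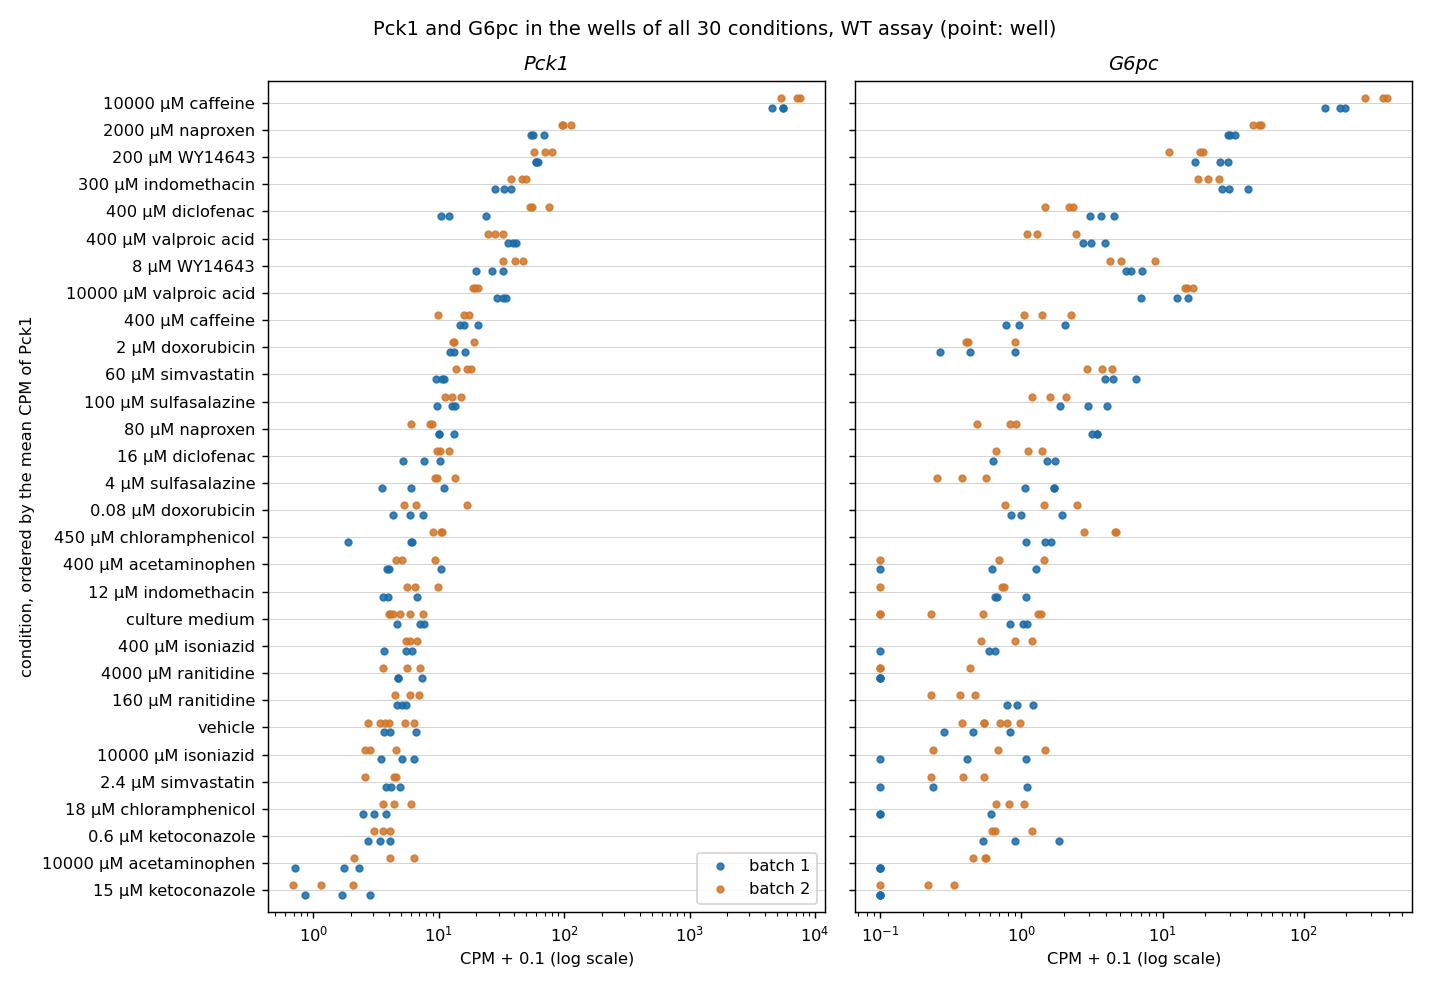
CPM per well (log axis, 0.1 added) of Pck1 and G6pc in the 30 conditions of the WT assay, ordered by the mean level of Pck1, with a point for each well coloured by batch. The wells of 10000 µM caffeine stand apart for both genes, with G6pc between 141 and 390.0 CPM.

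Fbp1 was called in all 14 high concentrations, higher in 7 and lower in 7. The call with 450 µM chloramphenicol (L2FC -0.30 ± 0.12, SE, adjusted p 0.0379) was lost without any 1 of the replicates (0.1 to 0.184) and in each batch alone (0.0708 and 0.25). Without any 1 of the replicates 13 calls of Fbp1 were left. Its highest levels were with WY14643, at 868, 1074 and 912 CPM and 692, 869 and 798 CPM at 8 µM (L2FC 3.22 ± 0.12, SE, adjusted p 1.4e-61) and 869, 852 and 696 CPM and 590.0, 712 and 615 CPM at 200 µM (2.90 ± 0.11, adjusted p 2.66e-56). These concentrations overlapped each other in at least 1 batch, and caffeine came next in order. The lowest levels of Fbp1 were with 10000 µM acetaminophen, at 8.52, 12.1 and 8.46 CPM and 10.4, 8.53 and 8.44 CPM (-3.14 ± 0.14, adjusted p 1.8e-49), and 4000 µM ranitidine, at 17.5, 14.9 and 18.6 CPM and 10, 10.6 and 8.48 CPM (-3.04 ± 0.14, adjusted p 1.27e-48). Both lay below all vehicle wells of their batch.

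Pc was higher in 5 and lower in 7 high concentrations, and higher in 5 low ones. The calls with 12 µM indomethacin and 4 µM sulfasalazine were lost without replicate 2 or 3 (adjusted p 0.0851 to 0.245), which left 3 of the 5 at low concentrations. Those with 60 µM simvastatin and 2 µM doxorubicin were lost without replicate 2 or 3 (0.154 and 0.0712) and without replicate 1 (0.105). With 8 µM WY14643 Pc was at 49.4, 40.6 and 51.7 CPM and 70, 81 and 77.1 CPM (L2FC 2.65 ± 0.16, SE, adjusted p 1.51e-34), above the wells of 200 µM WY14643, the next in order, in both batches. At 200 µM it was at 30.4, 27.9 and 37.5 CPM and 65, 58.8 and 52.3 CPM (2.15 ± 0.16). The lowest level was with 400 µM diclofenac, another cyclooxygenase inhibitor, at 3.49, 4.19 and 3.6 CPM and 3.99, 3.75 and 4 CPM (-1.74 ± 0.20, adjusted p 4.44e-14). With 10000 µM acetaminophen Pc was called higher (0.66 ± 0.17), but not when libraries were scaled by total reads (0.26, adjusted p 0.139).

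Ppargc1a was called in 5 of the 28 treatments with no filter, on few counts. Besides caffeine it was higher with 450 µM chloramphenicol, an inhibitor of mitochondrial protein synthesis, at 1.14, 2.04 and 0.344 CPM and 2.31, 1.24 and 3.04 CPM, where the wells overlapped vehicle in both batches (L2FC 1.06 ± 0.39, SE, adjusted p 0.0499). It was lower with 4000 µM ranitidine (3 and 1 counts in the batches, 95% interval of the ratio to vehicle 0.0517 to 1.09 and 0.00108 to 0.261). It was also lower with 10000 µM acetaminophen (1 and 4 counts, 0.00271 to 0.801 and 0.0453 to 0.49) and 400 µM diclofenac (2 and 7 counts, 0.0213 to 0.908 and 0.145 to 0.882). With 2000 µM naproxen and 200 µM WY14643, where Pck1 and G6pc were higher, the L2FC of Ppargc1a was -0.84 ± 0.49 (adjusted p 0.226) and -0.81 ± 0.50 (0.262), neither called in the WT assay. In the ST assay with no filter, where Ppargc1a averaged 9.09 counts per well and 25.6% of all gene and treatment pairs were called, it was called in 8 of the 28 treatments, among them the same 5 with the same sign. The others were 2000 µM naproxen (-1.41 ± 0.43, SE, adjusted p 0.00364), 300 µM indomethacin (-1.71 ± 0.44, 0.000483) and 2 µM doxorubicin (-1.54 ± 0.45, 0.00533), all lower. With 200 µM WY14643 the ST value was 0.25 ± 0.35 (adjusted p 0.629), of the opposite sign to the WT value, and neither was called.

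Pklr was lower in 13 of the 14 high concentrations and 2 low ones, and higher in none of the 28. The high concentration without a call was 2 µM doxorubicin, at 6.69, 6.67 and 6.27 CPM and 11.1, 9.48 and 8.78 CPM (L2FC -0.49 ± 0.20, SE, adjusted p 0.0774). The lowest levels of Pklr were with 4000 µM ranitidine, at 0.599, 0.355 and 1 CPM and 0.557, 0.239 and 0.115 CPM (-4.52 ± 0.32, adjusted p 3.78e-29), and 400 µM diclofenac, at 0.174, 0 and 0.515 CPM and 1.65, 0.277 and 0.48 CPM (-4.48 ± 0.31, adjusted p 1.45e-29). Neither these nor caffeine was set apart from its neighbour in order. With 8 µM WY14643 the L2FC of Pklr was -3.18 ± 0.28 (adjusted p 1.07e-20), at place 3 from the lowest of the 10191 genes, and with 200 µM it was -3.09 ± 0.27.

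Pfkfb1 was higher in 2 of the high concentrations and lower in 8, and higher in 3 low ones. Of the low ones, the Pfkfb1 call with 80 µM naproxen was lost without any 1 of the replicates (adjusted p 0.0731 to 0.249) and that with 8 µM WY14643 without replicate 2 (0.0644), which left only 400 µM valproic acid of the 3. Besides caffeine it was higher with 100 µM sulfasalazine, at 48.6, 46.9 and 42.1 CPM and 30.2, 34.7 and 27.2 CPM (L2FC 0.79 ± 0.15, SE, adjusted p 4.04e-06). In batch 2 alone the L2FC there was 0.33 (adjusted p 0.104). The lowest level of Pfkfb1 was with 10000 µM acetaminophen, at 2.2, 1.38 and 1.41 CPM and 1.6, 1.78 and 0.788 CPM (-3.66 ± 0.22, adjusted p 5.25e-35).

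Irs2 was higher in 11 of the 14 high concentrations and 1 low one, and lower in none with both batches together. The low one, 8 µM WY14643 (L2FC 0.84 ± 0.28, SE, adjusted p 0.00656), was lost without replicate 3 (0.0583), and the Irs2 call with 15 µM ketoconazole without any 1 of the replicates (0.0767 to 0.182). With 2 µM doxorubicin, which was not called (L2FC -0.13, adjusted p 0.816), Irs2 was at 6.02, 5.47 and 7.1 CPM in batch 1, above vehicle, and at 4.67, 5.79 and 5.09 CPM in batch 2, below vehicle. The L2FC there was 0.93 in batch 1 alone (adjusted p 0.25) and -0.94 in batch 2 alone (0.0268, called lower), and the difference between batches was -1.86 ± 0.54 (SE, 0.0508). At 0.08 µM it was also called lower in batch 2 alone (-1.08, adjusted p 0.0209), with 0.37 in batch 1. After caffeine in mean CPM came 400 µM diclofenac, at 63.4, 31.3 and 37.8 CPM and 110.2, 75.2 and 81.7 CPM (L2FC 3.16 ± 0.25, SE, adjusted p 8.09e-25). By L2FC 10000 µM acetaminophen came before it. Acetaminophen at 10000 µM gave 81.9, 31.7 and 51.1 CPM and 66, 38.6 and 46 CPM (3.50 ± 0.26, adjusted p 4.78e-28), and 4000 µM ranitidine 32.2, 41.4 and 24.6 CPM and 42.5, 43.1 and 46.3 CPM (2.66 ± 0.25, adjusted p 6.25e-19). The ranitidine wells lay above those of the next condition in both batches. In these same 3 treatments Fbp1, Pklr, Pfkfb1 and Slc2a2 were all called lower, as they were with 15 µM ketoconazole. Of all genes 71.7%, 78.9% and 66.2% were called in the 3, and 51.3% with ketoconazole.

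Slc2a2 was lower in 12 of the 14 high concentrations and 3 low ones. It was higher with 10000 µM isoniazid, at 155, 187 and 130.4 CPM and 179, 210.3 and 193 CPM, above vehicle in both batches (L2FC 0.59 ± 0.14, SE, adjusted p 0.000227). In batch 1 alone that L2FC was 0.43 (adjusted p 0.0848). The lowest level of Slc2a2 was with 10000 µM acetaminophen, at 4.67, 2.15 and 1.81 CPM and 8.25, 4.97 and 5.4 CPM (-4.15 ± 0.19, adjusted p 6.65e-49). In mean CPM WY14643 followed, at 15.8, 14.4 and 9.12 CPM and 9.69, 9.12 and 9.06 CPM at 200 µM (-3.09 ± 0.17) and 13.7, 13.5 and 12.9 CPM and 12.8, 10.2 and 13.1 CPM at 8 µM (-2.87 ± 0.17). By L2FC 10000 µM valproic acid (-3.23) came before both. With 8 µM WY14643 Slc2a2 was at place 9 from the lowest of the 10191 genes.

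Pck1, G6pc and Fbp1 were all higher in 7 of the 14 high concentrations: caffeine, indomethacin, naproxen, simvastatin, sulfasalazine, valproic acid and WY14643. In each of these 7 treatments Pklr and Slc2a2 were both lower. They were both lower as well with acetaminophen, diclofenac, ketoconazole and ranitidine, where Fbp1 was lower. With simvastatin the Fbp1 call was lost in batch 1 alone (L2FC 0.34, adjusted p 0.088) and in the ST assay (0.34, 0.294). The Pklr call there was lost in batch 2 alone (-0.68, 0.0645). The Slc2a2 call with ketoconazole was lost without any 1 of the replicates. At the low concentrations the 5 calls occurred together with WY14643 (8 µM) and with valproic acid (400 µM). The treatments of a batch share vehicle wells, so these counts are not independent of each other.

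The same lists are given for 200 µM WY14643, where 51.4% of all genes were called. No difference between the chemicals was tested. With 200 µM WY14643, 10 of 14 glucose- and insulin-induced genes were higher and 3 lower, with a median L2FC of 0.53 against -0.01 over all genes. Thrsp was at 174 to 190.1 CPM in batch 1 and 125 to 139.6 CPM in batch 2 with WY14643, and at 12.7 to 18.6 CPM and 14.3 to 22.9 CPM with 10000 µM caffeine. Pdk4 was at 60.1 to 66.5 CPM and 65.5 to 102 CPM with WY14643. Of the other lists with WY14643, 14 of 23 other enzymes were higher and 3 lower, 7 of 14 cAMP-responsive genes higher and 4 lower, 9 of 21 regulators higher and 3 lower, and 5 of 9 glycogen genes higher and 1 lower. The share called was 92.9% of the glucose- and insulin-induced genes, 78.6% of the cAMP-responsive genes, 73.9% of the other enzymes, 66.7% of the glycogen genes and 57.1% of the regulators.

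Medium without DMSO differed from vehicle in 2 of the 8 tested genes, with 12.6% of all genes called. Pklr was at 27.2, 22.1 and 26.4 CPM in the medium wells of batch 1 and 15.3 to 22.5 CPM in batch 2, above vehicle in both and the highest of the 30 conditions (L2FC 1.01 ± 0.17, SE, adjusted p 2.29e-06). Pc was at 14.7, 12.4 and 12.1 CPM and 17 to 24.5 CPM, also above vehicle (0.58 ± 0.15, adjusted p 0.0039). The Pc call was lost in batch 1 alone (adjusted p 0.269) and without replicate 2 (0.0642). The ST assay did not call Pc in medium (0.12 ± 0.20, adjusted p 0.702). It called Pklr (0.89 ± 0.18, 3.87e-05) and, lower, Fbp1 (-0.66 ± 0.23, 0.0293), which WT did not call (-0.22 ± 0.10, 0.151). Pck1 and G6pc were not called (0.46 ± 0.25, adjusted p 0.233, and 0.38 ± 0.53, adjusted p 0.695). In medium calls were above the share of all genes in 4 of the 5 lists. Of the glucose- and insulin-induced genes 8 of 14 were higher and 0 lower, with a median of 0.58 against -0.01 over all genes. Of the other enzymes 10 of 23 were higher and 0 lower (median 0.35), of the glycogen genes 5 of 9 and 0 (0.51), and of the cAMP-responsive genes 3 of 14 and 1 (-0.01). Of the regulators 2 of 21 were higher and 0 lower (0.10), or 9.52% called.

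In each batch alone, 80 of the 94 calls at the high concentrations and 21 of the 28 at the low ones were made again in both, all with the same sign. The other 14 at the high concentrations were Pc with acetaminophen, caffeine, doxorubicin and simvastatin, G6pc, Irs2 and Slc2a2 with ketoconazole, Fbp1, G6pc and Pklr with chloramphenicol, Fbp1 and Pklr with simvastatin, Pfkfb1 with sulfasalazine and Slc2a2 with isoniazid. The other 7 at the low ones were Pck1, Fbp1 and Pc with sulfasalazine, G6pc and Pfkfb1 with naproxen, Pc with indomethacin and Pck1 with diclofenac. A further 10 pairs were called in 1 batch alone and not with both together. Among them was Pck1 with 10000 µM acetaminophen, at -1.27 in batch 1 (adjusted p 0.0118) and 0.39 in batch 2 (0.237), with a difference of 1.67 ± 0.57 (SE, adjusted p 0.0599). Over all genes and treatments 20.1% of the pairs were called in batch 1 alone and 27.9% in batch 2 alone. The response differed between the rats in 5 of the 224 pairs of the 8 genes, against 2.44% of all pairs. Of these, 1 involved caffeine: Slc2a2 had an L2FC of -2.28 in batch 1 and -1.45 in batch 2 (adjusted p 0.0183). For Pck1 with 10000 µM caffeine the difference, batch 2 minus batch 1, was 0.41 ± 0.38 (SE, adjusted p 0.578), and for G6pc 0.65 ± 0.82 (0.719).

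**Figure D4:**
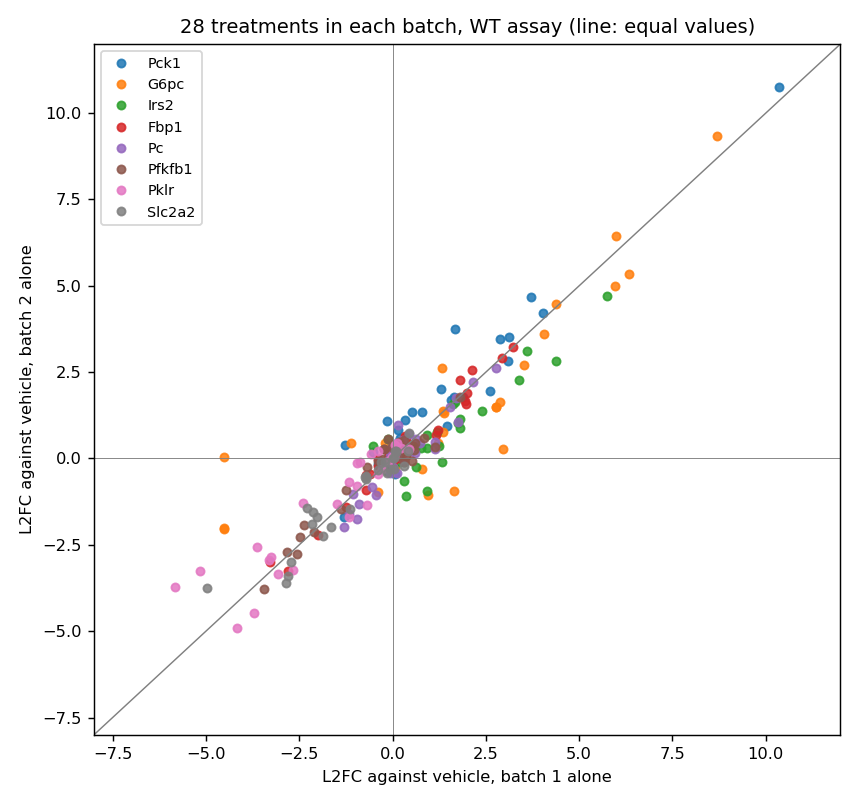
L2FC against vehicle in batch 1 alone (x axis) and batch 2 alone (y axis) for the 8 tested genes in the 28 treatments, coloured by gene, with the line of equal values. The Pck1 point of 10000 µM caffeine lies at 10.34 and 10.76, and the G6pc point at 8.69 and 9.35.

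In batch 2 there were vehicle wells on both plates. Of the 51 calls with the 6 chemicals whose batch 1 plate held no vehicle wells, 46 were made again in batch 2 alone with the same sign. Between the vehicle wells of these plates of batch 2 edgeR called none of the 8 genes (lowest adjusted p 0.382), and 0 had an unadjusted p under 0.05. Over all genes 0% were called, while 1423 of 10191 had an unadjusted p under 0.05. The plates of batch 1 could not be compared in this way.

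The ST assay tested 5 of the genes in separate libraries of the same wells. Of 140 pairs of a gene and a treatment 83 were called by the WT assay, 78 by the ST assay and 75 by both, none with opposite signs, where the ST assay called 34.8% of the pairs of all its genes. The 8 called by WT only were Pck1 with 15 µM ketoconazole, 16 µM diclofenac and 4 µM sulfasalazine, Fbp1 with 2.4 and 60 µM simvastatin, 4 µM sulfasalazine and 80 µM naproxen, and Pc with 60 µM simvastatin. The 3 called by ST only were Pklr with 2 µM doxorubicin, Pc with 2.4 µM simvastatin and Slc2a2 with 12 µM indomethacin, all lower. With 10000 µM caffeine the L2FC in the ST assay was 10.52 for Pck1, 2.24 for Fbp1, -1.02 for Pc, -3.49 for Pklr and -1.73 for Slc2a2. The Pck1 level in ST was 3.38 ± 2.24 CPM (SD, n = 3) in vehicle of batch 1 and 3629.8 ± 729.9 CPM with caffeine. The probes of Pck1, Ppargc1a and Slc2a2 bore the same numbers in both assays, and those of Fbp1, Pc and Pklr did not.

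**Figure D5:**
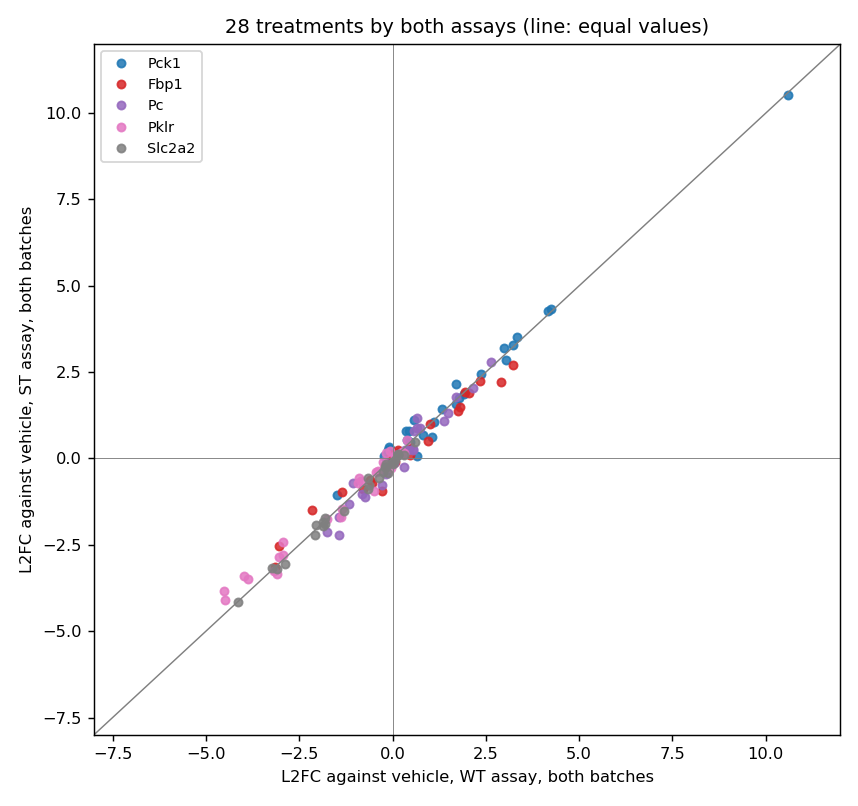
L2FC against vehicle of Pck1, Fbp1, Pc, Pklr and Slc2a2 in the 28 treatments by the WT assay (x axis) and the ST assay (y axis), both batches, with the line of equal values. The Pck1 point of 10000 µM caffeine lies at 10.59 and 10.52, and no pair called by both assays had opposite signs.

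The pattern of Pck1, G6pc and Ppargc1a over the 30 conditions was compared with that of 10183 other genes, by the correlation of mean log2 levels per condition. The conditions share 2 rats and their runs, and the values are a description. Most like Pck1 were Pmel (Pearson r 0.927), Cyp2j10 (0.913) and Ppp1r3g (0.886). Without 10000 µM caffeine these values were 0.844, 0.782 and 0.704. Cyp2j10, a cytochrome P450, had a mean of 19 and 25 CPM in vehicle and 520.0 and 664 CPM with 10000 µM caffeine. Ppp1r3g, a glycogen-targeting subunit of a protein phosphatase, went from 0.338 and 0.554 CPM to 57.8 and 84 CPM. Most like G6pc were Rnf152 (0.869), Mief1 (0.866) and Psenen (0.861), and most like Ppargc1a were AABR07001896.1 (0.813), Pfkfb2 (0.788) and Gpc4 (0.767). Without 10000 µM caffeine these values were 0.809, 0.804 and 0.831 for G6pc and 0.781, 0.618 and 0.630 for Ppargc1a. The first 3 places by Spearman's rho held 0 of these genes for Pck1, 1 for G6pc (Psenen) and 1 for Ppargc1a (AABR07001896.1), and the rho of Gpc4 with Ppargc1a was 0.382.

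Among the 9 genes, Pck1 and G6pc had a Pearson r of 0.892 over the 30 conditions, and 0.884 without 10000 µM caffeine. Fbp1 had an r of 0.744 with G6pc and 0.705 with Pfkfb1. Pklr had an r of 0.752 with Slc2a2 and -0.808 with Irs2. Between Pck1 and Ppargc1a r was 0.335 with 10000 µM caffeine and -0.291 without it.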

How the data were processed

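The authors sequenced TempO-Seq libraries of each well with an ST and a WT probe set (372 libraries), aligned the reads to the rat genome build rn6 with STAR 2.5.3a, and deposited unnormalized counts per probe. All deposited count columns were used, and no 2 wells held identical values. Here the counts of probes of a symbol were added, which left 20946 WT symbols. Genes averaging 10 or more counts per well (10191 in WT) were tested with edgeR 4.0.16 in R 4.3.3, with TMM factors, all groups in 1 quasi-likelihood fit, batch as a term and Benjamini-Hochberg adjustment over all genes tested. The script was tested on simulated data. CPM used the total reads of a well. Wells of a batch come from the same rat, so batch was the pairing and served as the replicate block. The study used DESeq2, run here as an alternative (version 1.42.0), as were other scalings, no filter, no block, each batch alone, wells of the same plate and each replicate left out.

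Named genes were all 9 genes, from each gene list at most the 3 with the largest absolute L2FC in 10000 µM caffeine that were called in both batches with the same sign, and the 3 genes most like Pck1, G6pc and Ppargc1a. The genes and lists were chosen with earlier results of these data known. A gene that this rule also names is not reported here. The markers and Tat were named because they make up a small count.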

Additional observations from a re-analysis of the deposited data

Results flagged for a closer look

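The response to a treatment differed between the rats of the 2 batches in 5 of 224 pairs of a gene and a treatment, by edgeR's quasi-likelihood test of the difference with Benjamini-Hochberg adjustment over all genes. This is 2.23% of the pairs, where 2.44% of the pairs of all genes were called, so the count is no result about these genes. In all 5 the sign was the same in both batches and the response was called in each. Pck1 with 400 µM diclofenac had an L2FC of 1.67 in batch 1 and 3.76 in batch 2, a difference of 2.11 ± 0.40 (SE, adjusted p 5.78e-05), with wells at 12, 23.7 and 10.3 CPM and 75.1, 53.1 and 55.7 CPM. Irs2 with 10000 µM acetaminophen had 4.39 and 2.81, a difference of -1.57 ± 0.47 (adjusted p 0.0221). Slc2a2 had -4.98 and -3.74 with 10000 µM acetaminophen, a difference of 1.25 ± 0.35 (adjusted p 0.0134). With 10000 µM caffeine Slc2a2 had -2.28 and -1.45, a difference of 0.84 ± 0.25 (adjusted p 0.0183), and with 10000 µM valproic acid -2.85 and -3.61, a difference of -0.78 ± 0.27 (adjusted p 0.0478). With 1 rat per batch, a difference between animals and one between runs cannot be told apart. The acetaminophen wells of batch 1 were on a plate that held no vehicle wells. The vehicle and medium wells of batch 2, the 2 groups of 6 wells, were checked for a well far from the others in each of the 9 genes, and 0 of these 18 checks found one. Treatment groups, with 3 wells a batch, were not checked.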

How the results depend on the processing

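Of 139 L2FC of single genes that were called, 0 changed sign under any alternative, and under DESeq2, RLE size factors and fits of only the wells compared all 139 stayed past the threshold. The threshold was missed by 6 with total read counts, 1 with no filter, 17 in batch 1 alone, 9 in batch 2 alone, 2 of 122 with vehicle wells of the same plate, 9 of 94 in the ST assay, and 7, 12 and 12 without replicate 1, 2 and 3. Without the replicate block, batch being the pairing, 9 missed it, and the counts were 42 higher and 48 lower at the high concentrations, 18 and 5 at the low ones, 8 with 10000 µM caffeine, 2 in medium, 7 against the other high concentrations and 8 against 400 µM caffeine. The ST assay, which tested 5 genes only, called 20 higher at the high and 11 higher at the low concentrations, 5 with 10000 µM caffeine, 4 against the other high concentrations and 5 against 400 µM caffeine. Requiring an absolute L2FC of at least 1 gave 14 higher at the low concentrations and 1 in medium, and batch 1 alone gave 1 in medium. That cut also lowers the counts at the high concentrations. It drops, among others, Pc with 10000 µM caffeine (-0.82) and Fbp1 with 60 µM simvastatin (0.48). Leaving out each replicate gave 42 to 44 higher and 46 to 48 lower at the high concentrations, 15 to 22 higher and 6 lower at the low ones, and 1 to 2 in medium, the 1 without replicate 2, where Pc was lost (adjusted p 0.0642). Calls of single genes that were lost without at least 1 of the replicates were Pck1 with 16 µM diclofenac, G6pc with 15 µM ketoconazole and 4000 µM ranitidine, Fbp1 with 450 µM chloramphenicol, Pc with 12 µM indomethacin, 2 µM doxorubicin, 60 µM simvastatin and medium, Pfkfb1 with 8 µM WY14643 and 80 µM naproxen, Irs2 with 15 µM ketoconazole and 8 µM WY14643, Slc2a2 with 15 µM ketoconazole, and Pck1, Fbp1 and Pc with 4 µM sulfasalazine, at adjusted p of 0.057 to 0.69. Scaling by total reads moved the median of all genes by -0.12 (log2) for 10000 µM caffeine, and by -0.41 for 10000 µM acetaminophen to 0.28 for 10000 µM valproic acid. The alternative of separate probes gave no other value, since each gene had 1 probe in WT, and the same-plate alternative gave none for medium and for the comparisons between treatments. Depth limits G6pc in vehicle (1 to 6 counts per well) and Ppargc1a (5.61 counts per well on average).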
